A study of Sus scrofa with 24 samples.

Results

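The ion channel and connexin genes are the genes that carry the currents of the heartbeat and pass them from cell to cell. They were taken here by name alone: every probe whose gene symbol starts with KCN (potassium channels), SCN and a digit (sodium channels), CACN (voltage-gated calcium channels), CLCN (chloride channels), HCN (pacemaker channels), TRPC, TRPM or TRPV (transient receptor potential channels), or GJ with A, B, C or D and a digit (connexins). The rule took 99 of the 43603 probes and 69 of the 6622 named genes on the array, and no measured value entered it. Of the 69 genes, 52 had a probe well above background on at least 3 arrays and could be analysed. The other 17 did not, among them KCNJ13, KCND3, KCNH6, TRPC5, CLCN5, TRPV1, KCNA7, TRPC4, TRPC7, SCN8A, GJD2, KCNV2, TRPM3, TRPC6, KCNMB3 and KCNK16. Probes taken here as TRPC7 are called TRPM2 in the array files, so the identity of that gene is uncertain. TRPC4AP, an adaptor protein, and KCNRG, a regulator of channel assembly, match the rule by name and form no channel themselves. Both were kept in the counts.

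The tissue was heart muscle of domestic pigs in which an infarct had been made without opening the chest and the blocked artery had then been reperfused. All pigs of both arms had 250 mg of aspirin and 300 mg of clopidogrel by mouth before the infarct, and 100 mg and 75 mg daily during follow-up. At 1 month after the infarct, 6 of the 9 pigs measured here received a secretome, the products released by apoptotic mononuclear blood cells, injected into the heart muscle through a catheter. The other 3 pigs (10, 18 and 40), labelled as not treated, are taken as the placebo arm given medium, and the design text speaks of 8 pigs per arm. Tissue was taken 1 month after treatment from the infarct core, from the injected border zone, and from a normal region remote from the scar. The core gave 9 arrays (3 medium, 6 secretome), the border zone 9 (3 and 6) and the normal region 6 (2 and 4). Pigs 12, 13 and 40 have no normal region array. Each pig is a separate animal, and the number of pigs, above all the 3 of the medium arm, limits the precision.

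Each heartbeat starts with an inward current through sodium and calcium channels and ends when potassium channels carry charge out again. In ventricular muscle, the transient outward current starts this repolarization, the rapid and slow delayed rectifiers complete it, and inward rectifiers hold the resting voltage. Connexins build the gap junctions through which the current spreads from cell to cell, mostly at the intercalated discs. Fibroblasts, smooth muscle, endothelium and immune cells use other members of the same families, so a piece of infarcted tissue mixes the channel sets of several cell types.

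Levels are log2 processed signals relative to the 75th percentile of the same array, and differences are log2 differences with their standard error. Levels of different probes are not set against each other. Between 61.53% and 75.64% of probes were well above background on an array. The arrays were scanned in 2 series of 12, each with pigs of both arms, and within-series values are given where they bear on a result. The mean level of 7 cardiomyocyte markers was 9.17 to 9.82 in the normal region and 2.97 to 9.37 in the infarct core, where pig 40 gave the 2.97 and the next lowest core 7.09. All 7 of these markers were lower in the core than in the normal region. All 8 fibroblast and scar markers and all 6 macrophage markers measured were higher, as were 7 of 8 T and NK cell markers. Of the T and NK cell markers, 1 was lower. None of these markers was below background throughout a region. In bulk tissue, fewer cells of a type and less RNA per cell cannot be told apart.

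Between infarct core and normal region, 12 of the 52 genes were higher, against 27.6% of the 6035 named genes analysed, and 18 were lower, against 30.7% (limma with pig as a random block, Benjamini-Hochberg adjusted over all 34362 probes kept, threshold 0.05). The median difference of the 52 genes was -0.23, and that of all named genes -0.07. Against the border zone, 15 genes were higher in the core (25.9% of all named genes) and 19 were lower (26.2%), with medians of -0.35 and -0.02. Against the normal region the share of channel genes that changed was thus near that of all genes. Against the border zone the share that was lower stood above that of all genes, and this excess was not tested. The results below give which genes went which way. KCNQ1, KCNE1, KCNH2, KCNIP2, KCNJ2, KCNJ11 and GJA1 were among those that fell. KCNS3, KCNA3, KCNN3, KCNMB4, CACNA1D and TRPC1 were among those that rose. Without pig 40, the counts against the normal region were 11 higher and 18 lower, and against the border zone 11 and 17.

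**Figure D1:**
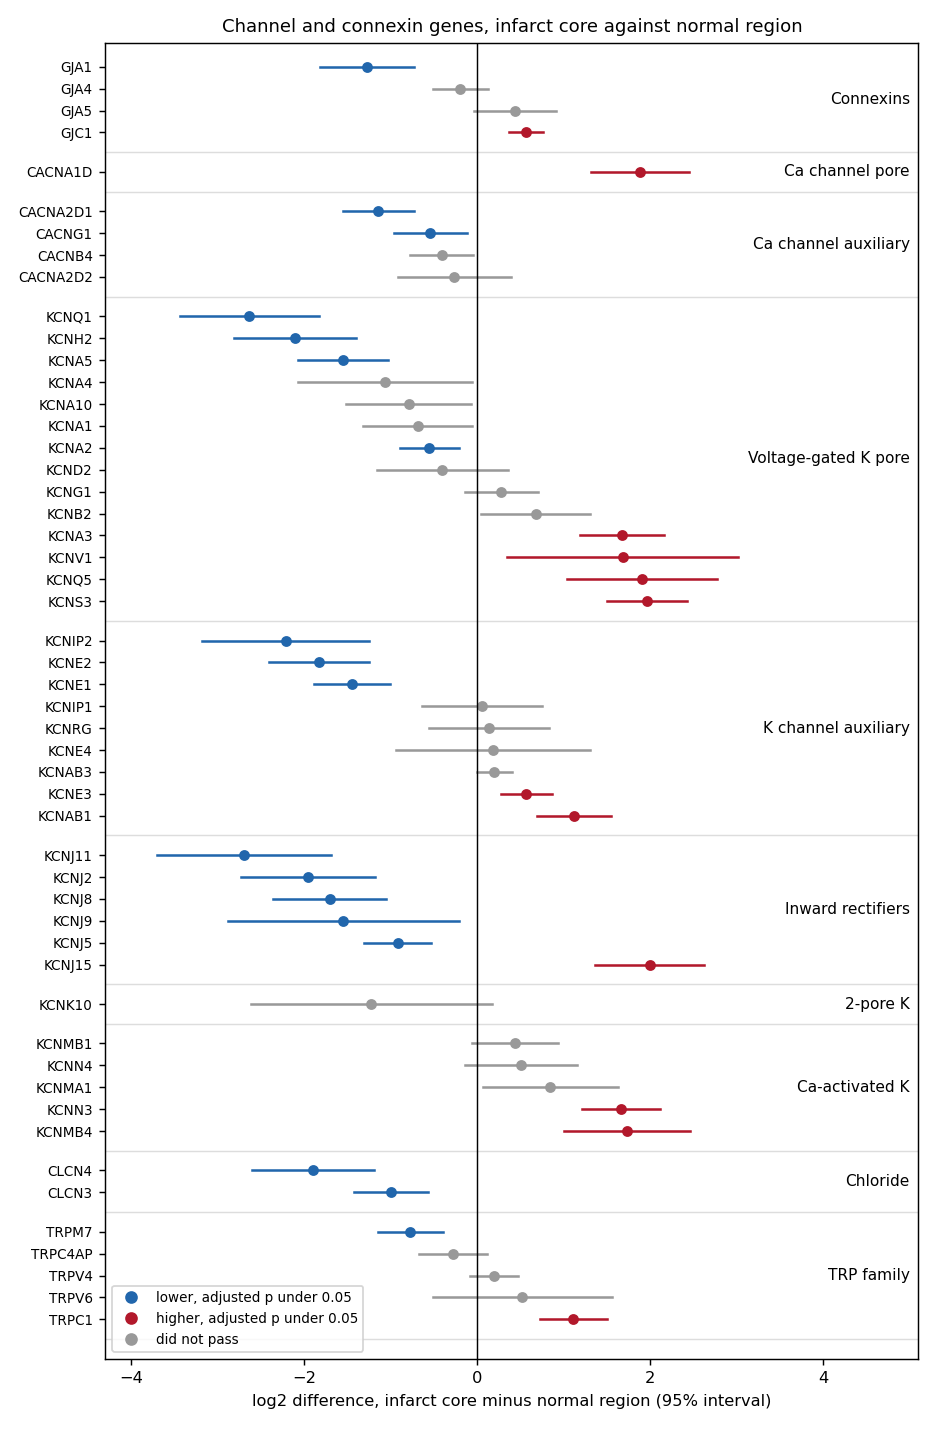
Log2 difference between infarct core and normal region for 51 of the 52 genes (points) with 95% intervals (lines), sorted within channel classes, with genes past the adjusted p threshold of limma in blue (18 lower) and red (12 higher). KCNJ11 (-2.70) and KCNQ1 (-2.64) lie lowest, and KCNJ15 (1.99) and KCNS3 (1.96) lie highest.

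Probes are shown by their first 30 of 60 bases, 5′ to 3′ as deposited, in lower case with no part marked. The set holds GJA1, GJC1, a gene whose probes moved alike (KCNIP2) and genes whose probes did not (KCNN4, KCNG1 and KCNE1). Other genes of either kind are not shown. Among them are KCNH2, whose probes correlated at 0.87 across the arrays, and KCNA5 and TRPV6, at 0.36 and -0.53.
GJA1: tccaatggtacatctatggattcagcctga
KCNIP2, brightest probe: cccctttcccatcagaacactattgactgc
KCNIP2, middle probe: gtatttgaacccagtgtgggggcatttatt
KCNIP2, dimmest probe: atggtgtggtgactattgaggaattcattg
KCNN4, brighter probe: taaatgcatgatcagcatttccacgttctt
KCNN4, dimmer probe: agagctgcacagaattacctggtcggctct
KCNG1, brighter probe: tacgtcatcgagaacgagatggccgatagc
KCNG1, dimmer probe: ccaccgtgtaaatagcatgcccagcaaaga
KCNE1, brighter probe: ttgcacttttctcttagaaagttcagtctc
KCNE1, dimmer probe: aaccaggcggccgtagaacaacctgccaca
GJC1: cactgaataatgacttccattgagtaaaca
Of the 52 genes, 14 had more than 1 kept probe, and a gene is read from its brightest one. The longest run of bases shared by the paired probes is 6 for KCNN4, 6 for KCNG1 and 8 for KCNE1, so the probes of each pair read different stretches.

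Among the connexins, GJA1, the main gap junction protein of ventricular muscle, fell in the infarct core. Its level was 0.42 at the lowest, 1.69 at the median and 1.88 at the highest in the normal region, -0.15, 0.80 and 1.85 in the border zone, and -1.28, -0.68 and 1.25 in the core. The ranges overlap, since the core arrays of pigs 10, 11, 14 and 15 stayed above the normal array of pig 18, but the core was lower in 6 of 6 pigs with both regions. Those 4 pigs are of scan series 2 and pig 18 is of series 1. Within each series normal and core did not overlap, with 1.62 to 1.88 against 0.53 to 1.25 in series 2 and 0.42 to 0.90 against -1.28 to -0.68 in series 1. The difference was -1.28 ± 0.26 from the normal region (2.43-fold, limma adjusted p = 0.000336) and -0.89 ± 0.23 from the border zone, lower in 9 of 9 pigs (limma adjusted p = 0.00293). GJC1, a connexin of the conduction system in adult hearts, rose: its normal arrays spanned -1.05 to -0.58 and its core arrays -0.56 to -0.06, without overlap. Its rise was small, 0.57 ± 0.09 against the normal region (higher in 6 of 6 pigs, limma adjusted p = 4.4e-05). The array files call this probe GJD3, and the RefSeq accession they give for it belongs to GJC1, so its identity rests on that accession.

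GJA5, a connexin of the conduction system, the atria and arterial endothelium, was higher in the core than in the border zone by 0.73 ± 0.20 (7 of 9 pigs, limma adjusted p = 0.00447) and by 0.52 without pig 40, where limma gave adjusted p = 0.0602. Its difference from the normal region was 0.43 ± 0.23 (limma adjusted p = 0.117). GJA4, a connexin of endothelium, did not pass in either comparison, with differences of -0.20 ± 0.15 and -0.07 ± 0.13. Of 7 endothelial markers, 3 were lower in the core than in the normal region and none was higher.

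The slow and rapid delayed rectifiers fell together. KCNQ1, the pore of the slow delayed rectifier, had levels of -3.69, -3.09 and -2.72 (lowest, median, highest) in the normal region, -6.43, -3.63 and -3.23 in the border zone and -8.29, -5.93 and -3.98 in the core, where only 4 of 9 arrays were well above background. Normal and core arrays did not overlap. The difference was -2.64 ± 0.39, or 6.22-fold lower, in 6 of 6 pigs (limma adjusted p = 1.12e-05). KCNE1, its auxiliary subunit, stood at 1.30 to 2.26 in the normal region (median 1.82) and at -0.84 to 1.68 in the core (median 0.23), a difference of -1.45 ± 0.21 in 6 of 6 pigs. Its dimmer probe gave -0.35 ± 0.21 (limma adjusted p = 0.168), so the size for KCNE1 depends on the probe. The brighter probe is named through a RefSeq accession and the dimmer through the file's gene name.

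KCNH2, the pore of the rapid delayed rectifier, lay at 4.66 to 4.99 in all 6 normal arrays (median 4.79) and at 0.16 to 4.48 in the core (median 2.48), again without overlap. It was 4.31-fold lower, with a log2 difference of -2.11 ± 0.34 (limma adjusted p = 2.81e-05), and its second probe gave -1.89 ± 0.41. The border zone spanned 1.93 to 4.95, and the 1.93 came from pig 40. KCNE2, a small subunit that can pair with KCNH2 and KCNQ1, was lower by a similar amount on both of its probes, with -1.83 ± 0.28 and -1.89 ± 0.41. KCNE3, of the same small-subunit family, went the other way at 0.57 ± 0.14 (6 of 6 pigs, limma adjusted p = 0.00211). Its other 3 probes gave 0.29 to 0.69, with 1 of the 3 past the threshold.

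**Figure D2:**
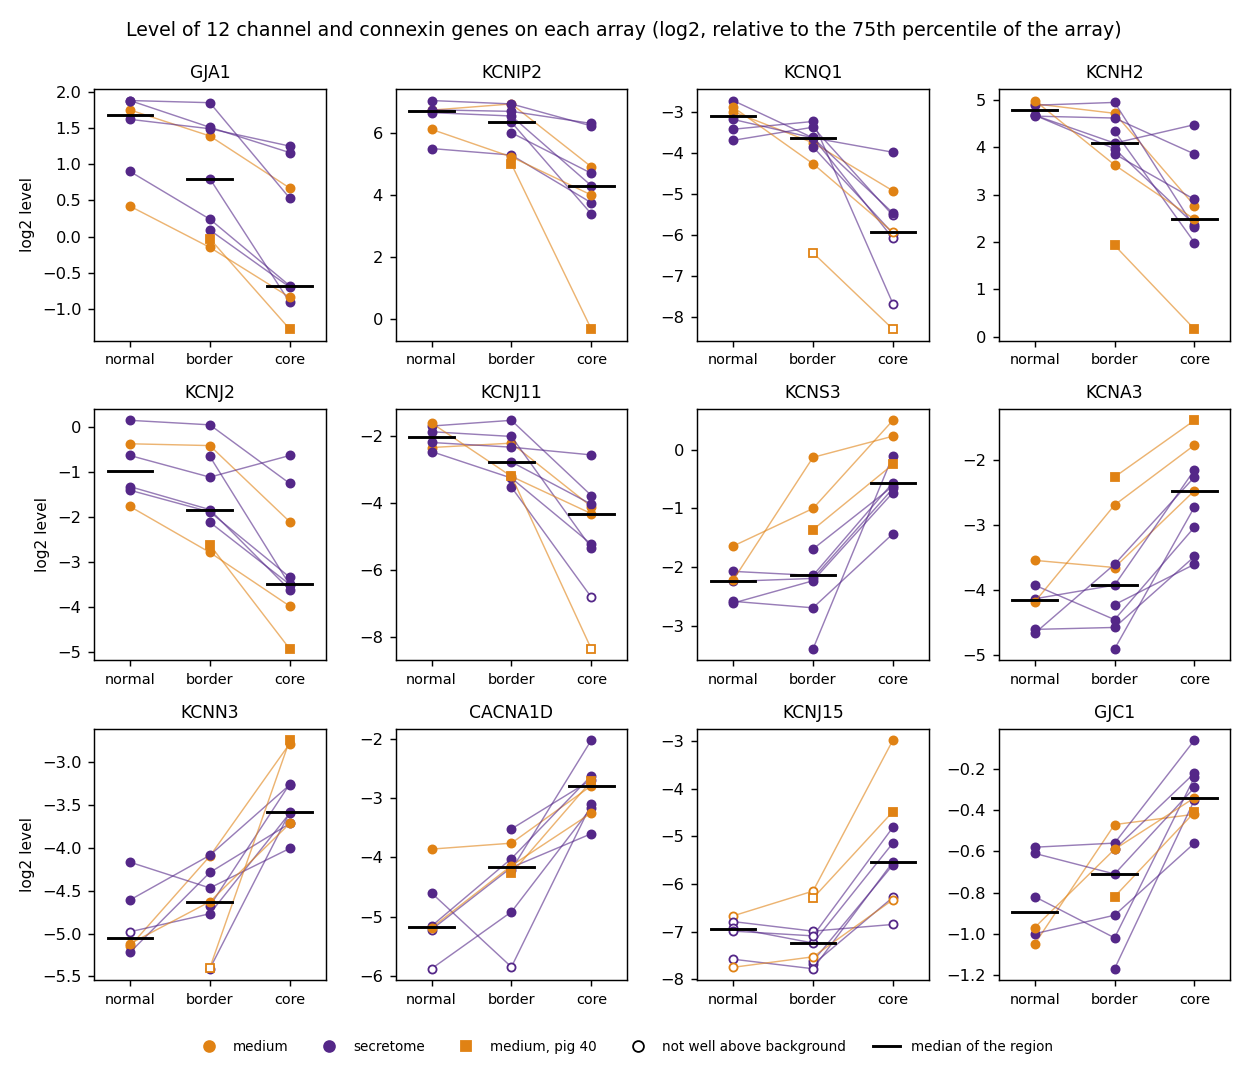
Log2 level of 12 genes on each array by region, with lines joining the arrays of a pig, filled symbols for signals well above background, squares for pig 40 and black bars for the median of the region. KCNQ1, KCNH2, KCNJ11, KCNS3, GJC1 and CACNA1D show no overlap between the normal region and the core; for CACNA1D the highest normal array is at -3.86 and the lowest core array at -3.60.

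KCNIP2, the subunit that brings the transient outward channel to the membrane of ventricular muscle, fell in the core. Levels were 5.51, 6.71 and 7.06 in the normal region, 5.01, 6.36 and 6.95 in the border zone and -0.32, 4.31 and 6.32 in the core. Pig 40 gave the -0.32, and the next lowest core array was at 3.40. The difference from the normal region was -2.22 ± 0.46 on the brightest probe and -2.21 ± 0.49 and -2.49 ± 0.58 on the others, 4.65-fold on the brightest (limma adjusted p = 0.000419). Against the border zone it was -2.19 ± 0.40 and lower in 9 of 9 pigs. Without pig 40 these values were -1.76 and -1.58, and both still passed.

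The pore genes of that current were measured less well. KCND2, a pore of the transient outward current, was well above background on 10 of 24 arrays and did not pass in the core (-0.41 ± 0.36, limma adjusted p = 0.363), and KCND3, the other pore, was among the 17 below the filter. KCNA4, a pore of the slow transient outward current, was lower in the core than in the border zone by -1.44 ± 0.42 (8 of 9 pigs, limma adjusted p = 0.00794). Without pig 40, whose core array stood at -8.12 and below background, that difference was -0.94 and limma gave adjusted p = 0.0573. KCNA5, the pore of the ultrarapid delayed rectifier, fell from a normal range of 2.10 to 3.25 to a core range of 0.12 to 2.84, a difference of -1.56 ± 0.25 in 5 of 6 pigs (limma adjusted p = 3.05e-05). A second KCNA5 probe gave -0.44 ± 0.16, past the threshold as well but smaller.

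Of the 6 inward rectifiers measured, 5 fell and 1 rose in the core, in both comparisons. KCNJ2, the main carrier of the resting inward rectifier current, had levels of -1.77, -0.99 and 0.14 in the normal region, -2.79, -1.84 and 0.04 in the border zone and -4.93, -3.50 and -0.64 in the core. All 6 pigs with both regions were lower in the core, by -1.96 ± 0.37 (3.89-fold, limma adjusted p = 0.000158). KCNJ11, the pore of the ATP-sensitive channel of muscle, fell, from -2.47 to -1.62 in the normal region to -8.35 to -2.57 in the core, where 7 of 9 arrays were above background and the ranges did not overlap. The difference was -2.70 ± 0.48 (6.48-fold, 6 of 6 pigs, limma adjusted p = 9.31e-05), and -2.27 without pig 40. Against the border zone it was -2.38 ± 0.42 and -1.78 without pig 40, with 9 of 9 pigs lower.

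KCNJ8, the pore of the ATP-sensitive channel of vascular smooth muscle, was lower, with a difference of -1.71 ± 0.32 (limma adjusted p = 0.000124). The sulfonylurea receptors ABCC8 and ABCC9, which complete these channels, were named for that role after their values were seen, and were lower by -2.58 ± 0.52 and -1.24 ± 0.20. KCNJ5, a subunit of the acetylcholine-activated channel, changed less, by -0.92 ± 0.19. The KCNJ5 difference from the border zone was -0.47 ± 0.16, and -0.44 without pig 40 and -0.43 without pig 10, where limma gave adjusted p = 0.0715 and 0.0886. KCNJ9, another G-protein-gated inward rectifier, had a difference of -1.55 ± 0.64 that just passed (limma adjusted p = 0.0472). It was -3.44 within scan series 1 and -0.26 within scan series 2, and without pig 40 it was -1.14 with limma adjusted p = 0.106. The call was also lost without any of pigs 13, 14, 15, 16 or 18 (-1.63 to -1.08, limma adjusted p from 0.0522 to 0.268). Its difference from the border zone was -1.69 ± 0.55, and -0.97 without pig 40 (limma adjusted p = 0.176). Only 11 of its 24 arrays were well above background, and all of those were of scan series 1. The -0.26 within scan series 2 thus compares readings below background and does not measure a change.

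KCNJ15, an inward rectifier known mostly from epithelia, rose. It was not well above background on any normal or border array, and was so on 6 of 9 core arrays, which reached -2.98. The rise was at least 1.34-fold against the normal region, from a measured log2 difference of 1.99 ± 0.30 (5 of 6 pigs, limma adjusted p = 1.59e-05). The rise over the border zone was at least 1.26-fold and higher in 9 of 9 pigs.

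The cardiomyocyte markers, lower by a median of -2.06, moved with these falls, and their part in them was not tested. Without pig 40 the falls of KCNQ1, KCNH2, KCNIP2, KCNJ2, KCNJ11 and GJA1 all still passed in both comparisons. Within scan series 2 alone, which holds 12 arrays, KCNQ1 and KCNJ2 no longer passed against the normal region. Against the border zone in that series, only KCNIP2 of these genes still passed.

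Among calcium channels the 1 pore measured rose, and 2 of 4 auxiliary subunits fell while the other 2 did not pass. CACNA1D, an L-type pore of sinoatrial node and atrium, had levels of -5.88, -5.18 and -3.86 in the normal region, with 4 of 6 arrays above background, and of -3.60, -2.79 and -2.02 in the core, with 9 of 9. It rose by 1.88 ± 0.27 (3.68-fold, 6 of 6 pigs, limma adjusted p = 9.04e-06) and by 1.36 ± 0.23 against the border zone in 9 of 9 pigs. CACNA2D1, the auxiliary subunit of the cardiac L-type channel, fell from 2.47 to 3.14 in the normal region to 0.30 to 2.86 in the core, by -1.14 ± 0.20 (limma adjusted p = 5.74e-05). CACNG1, a subunit of the skeletal muscle channel, was lower by -0.54 ± 0.20, and CACNB4 and CACNA2D2 did not pass. CACNA1C, the main calcium pore of ventricular muscle, and the pacemaker channels of the HCN family are not analysed here.

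Several potassium channel genes were higher in the core. KCNS3, a silent subunit that modifies other voltage-gated channels, had levels of -2.61, -2.23 and -1.64 in the normal region, -3.39, -2.14 and -0.13 in the border zone and -1.43, -0.56 and 0.50 in the core. Normal and core arrays did not overlap, and the rise was 1.96 ± 0.22 (3.89-fold, 6 of 6 pigs, limma adjusted p = 8.35e-07) with 2.02 and 1.84 within the scan series. KCNA3, the voltage-gated channel that sets the membrane voltage of T lymphocytes, stood at -4.66 to -3.54 in the normal region and at -3.60 to -1.39 in the core. The ranges touch, and it rose by 1.68 ± 0.23 against the normal region and by 1.20 ± 0.20 against the border zone, higher in 6 of 6 and 9 of 9 pigs. The mean level of 8 T and NK cell markers went from -2.25 to -1.24 in the normal region to -1.98 to 1.01 in the core, and its part in the KCNA3 rise was not tested.

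KCNN3, a small-conductance channel opened by calcium, rose by 1.66 ± 0.22 (limma adjusted p = 3.24e-06) from a normal median of -5.05 to a core median of -3.59. KCNMB4, an auxiliary subunit of the large-conductance channel, rose by 1.73 ± 0.35, while its difference from the border zone, 0.73 ± 0.30, did not pass (limma adjusted p = 0.053). KCNMA1, the pore of that large-conductance channel, was well above background on 8 of 9 core arrays, 2 of 9 border and 1 of 6 normal arrays. Its rise passed against the border zone (1.51 ± 0.33, 8 of 9 pigs, limma adjusted p = 0.00076) and not against the normal region (0.85 ± 0.38, limma adjusted p = 0.0653). KCNMB1, its smooth muscle subunit, gave 0.44 ± 0.24 and did not pass. Of 4 smooth muscle and pericyte markers, 2 were higher and 0 lower in the core than in the normal region. Against the border zone 2 were higher and 1 was lower. The part of these markers was not tested.

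KCNQ5, a channel of nerve and smooth muscle, was below background in all 6 normal arrays and above it on 6 of 9 core arrays, a rise of at least 1.32-fold (measured 1.91 ± 0.42, 4 of 6 pigs, limma adjusted p = 0.000672). From the border zone it differed by 0.92 ± 0.36, and 0.66 without pig 40, where limma gave adjusted p = 0.224. It was lost too without any of pigs 10, 11, 12, 13, 14 or 16 (0.82 to 0.95). KCNAB1, a cytoplasmic subunit of voltage-gated channels, rose by 1.12 ± 0.21 and was higher in the core in 6 of 6 and 9 of 9 pigs. KCNV1, a silent subunit, passed at 1.68 ± 0.64 (limma adjusted p = 0.0327), but the core was higher in only 2 of 6 pigs, both of the medium arm. The value was 2.91 within scan series 1 and 0.14 within scan series 2, and 1.59 without pig 40, where limma gave adjusted p = 0.0612. It was 0.34 without pig 18 (limma adjusted p = 0.656), and the call was also lost without pig 11 or pig 14 (1.65 and 1.73). The mean was 3.40 in the 2 medium pigs and -0.71 in the 4 secretome pigs, and the fit weights both arms equally. KCNV1 differed from the border zone by 1.55 ± 0.56, and 1.33 without pig 40 (limma adjusted p = 0.122), and it was lost too without pig 11 or pig 13 (1.53 and 1.23).

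Calcium-activated KCNN4, the channel of T cells, macrophages and activated fibroblasts, depended on the probe read. On its brighter probe the normal arrays spanned -4.68 to -2.71 and the core arrays -4.52 to -2.17, and the difference of 0.51 ± 0.31 did not pass. On its dimmer probe no normal array was well above background, the border zone spanned -7.14 to -3.82 with 5 of 9 arrays above background, and the core spanned -3.21 to -1.27 with 9 of 9. That probe was at least 10.3-fold higher in the core than in the normal region (measured 4.51 ± 0.46, 6 of 6 pigs, limma adjusted p = 3.11e-07), with 5.13 and 4.42 within the scan series. Across the 24 arrays the correlation of the 2 probes was 0.01.

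KCNG1, a silent subunit, showed the same split. Its brighter probe lay between -4.59 and -2.13 in all regions, with a difference of 0.28 ± 0.20. Its dimmer probe had medians of -6.36 in the normal region, -3.43 in the border zone and -1.31 in the core, and was higher in the core by 4.37 ± 0.65 (6 of 6 pigs, limma adjusted p = 1.22e-05). It was also the only probe of a channel gene that passed between border zone and normal region in the fit with pig as a random block, at 3.01 ± 0.65 (5 of 6 pigs, limma adjusted p = 0.0394). On this probe only the array of pig 14 (-4.48) was well above background in the normal region. In the border zone the arrays of pigs 11 and 40 were not. The sizes of both differences are thus measured against normal readings mostly below background. Since counts are read from brightest probes, neither rise is among the 12. The RefSeq accessions in the array files give both probes of each pair the same gene, and no transcript sequence was at hand to place them.

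**Figure D3:**
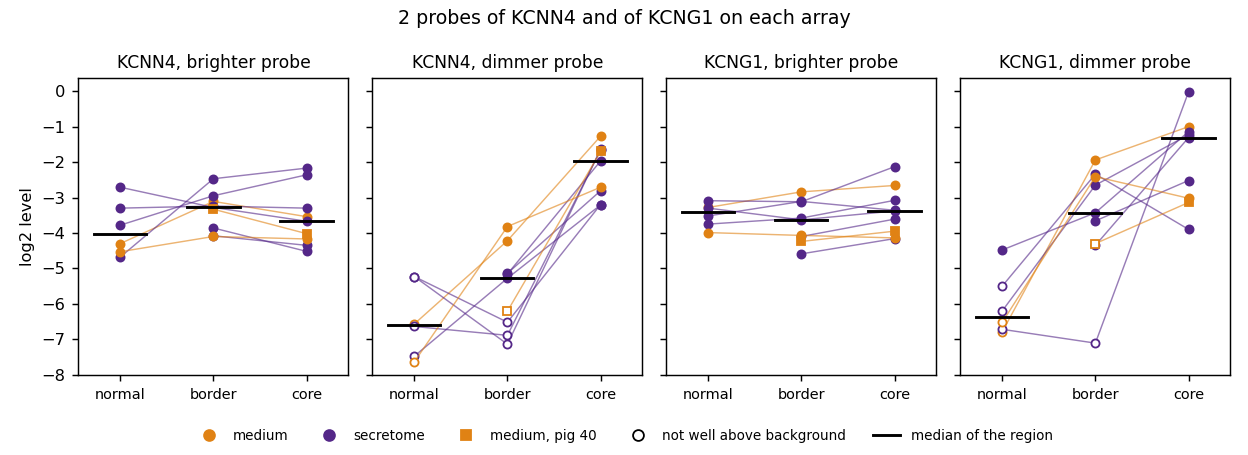
Log2 level of the 2 probes of KCNN4 and of KCNG1 on each array by region, with lines joining the arrays of a pig, open symbols for signals not well above background and black bars for region medians. The brighter probes overlap across all regions, while the dimmer ones reach core medians of -1.97 (KCNN4) and -1.31 (KCNG1).

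Of the other classes, both chloride genes measured fell, and of 5 transient receptor potential genes 1 rose and 1 fell against the normal region. CLCN4 and CLCN3, chloride-proton exchangers of endosomes, were lower in the core by -1.90 ± 0.34 and -1.0 ± 0.21, in 6 of 6 pigs each. TRPC1, a cation channel subunit found in many cell types, rose by 1.11 ± 0.19 on its brighter probe and by 1.06 on the other. Over the border zone it was higher by 0.61 ± 0.16, and by 0.41 without pig 10 (limma adjusted p = 0.0625). TRPM7, a cation channel joined to a kinase, fell by 0.78 ± 0.18, and its 5 probes ranged from -0.92 to -0.29 with 3 past the threshold. Its difference from the border zone was -0.70 with pig 40 and -0.39 without. TRPV4, a channel opened by stretch and swelling, was higher in the core than in the border zone by 0.29 ± 0.12 (limma adjusted p = 0.0465). That call was lost when any of pigs 10, 11, 13, 14, 16 or 18 was left out (0.21 to 0.29, limma adjusted p from 0.0725 to 0.258) and, among other settings, with quantile scaling (0.23, limma adjusted p = 0.075), array weights (limma adjusted p = 0.0901) and a term for scan series (0.29, limma adjusted p = 0.106). TRPV6, an epithelial calcium channel, did not pass in either comparison. Its brighter and dimmer probes went opposite ways against the normal region (0.52 and -0.44), and neither passed. KCNA2, a voltage-gated pore, was the last of the 18 lower genes, at -0.55 ± 0.16. KCNAB3, a cytoplasmic subunit, was among the 15 genes higher in the core than in the border zone, at 0.23 ± 0.09, and without pig 40 limma gave it adjusted p = 0.0674.

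**Figure D4:**
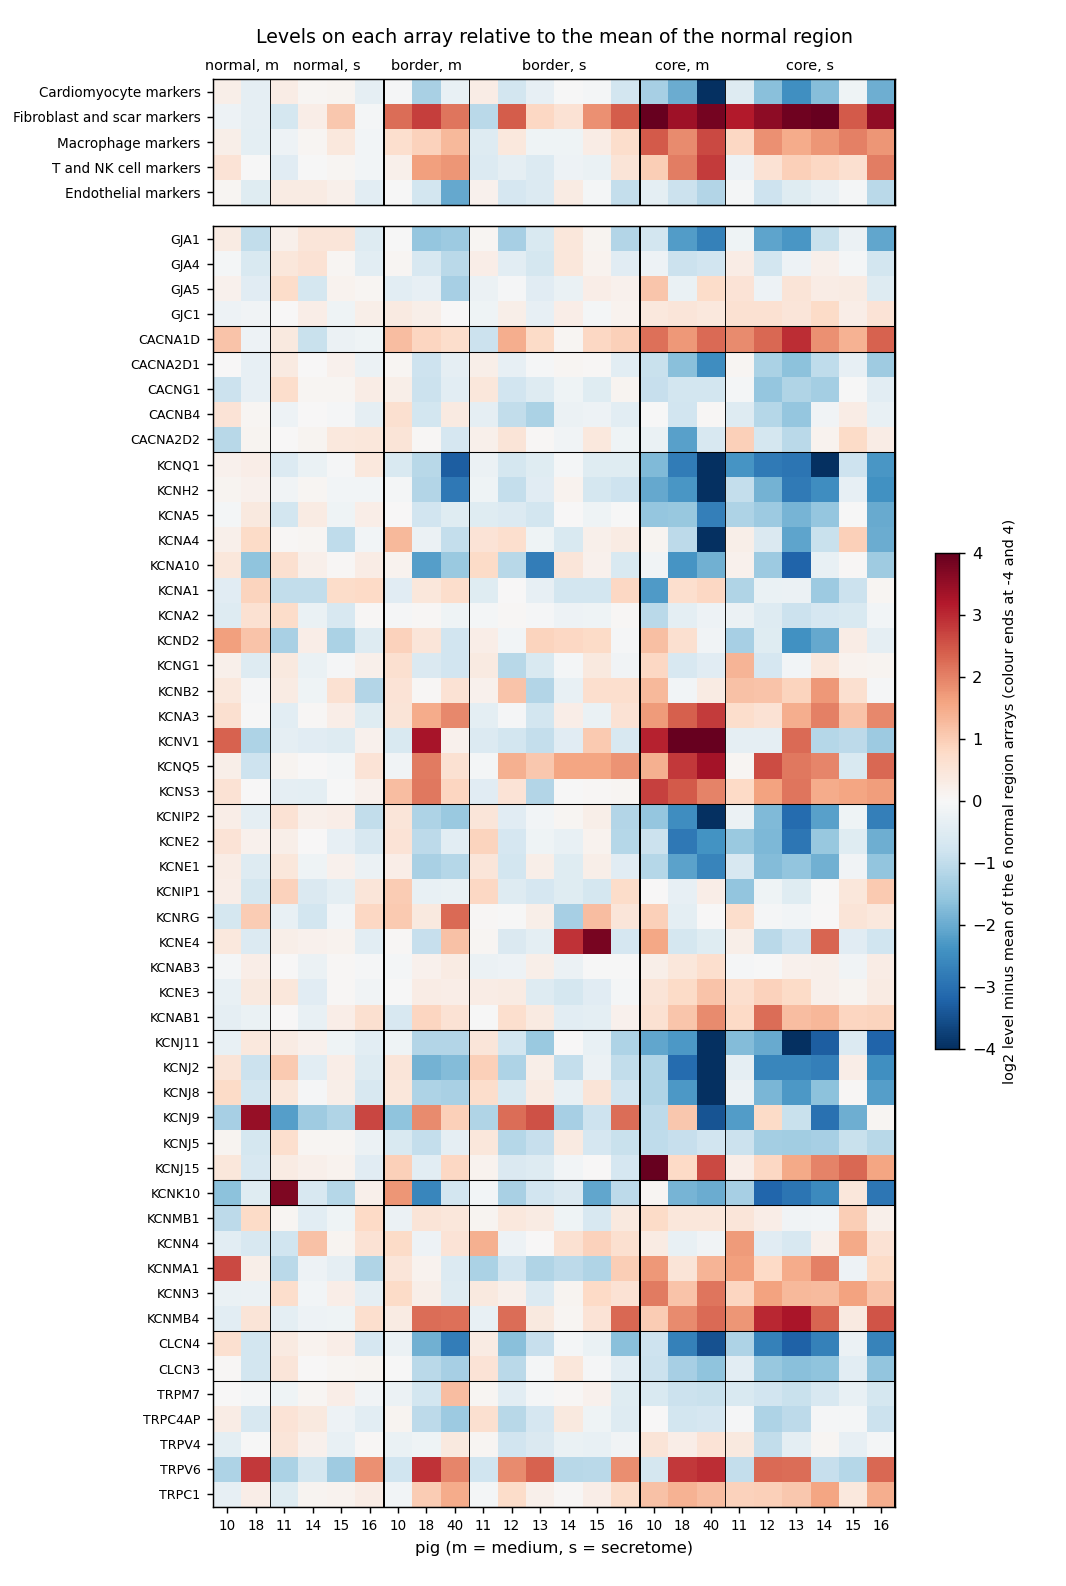
Level of 51 of the 52 genes (rows, by channel class) and of the mean of 5 cell type marker lists (top) on each of 24 arrays (columns, by region, arm and pig), as log2 difference from the mean of the 6 normal region arrays. The core columns are blue for KCNQ1, KCNH2, KCNIP2, KCNJ2, KCNJ8 and KCNJ11 in most pigs, with pig 40 lowest for KCNQ1, KCNIP2 and KCNJ11, and red for CACNA1D and KCNS3 in all 9.

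Some members differed between the scan series. All arrays of a pig lie in the same series, so scanning and a difference between the 2 sets of animals cannot be told apart. In 3 of the 52 genes the 12 arrays of series 1 and the 12 of series 2 did not overlap, against 10.7% of all named genes. On its brighter probe TRPV6 lay at 2.08 to 3.23 in series 1 and at -1.14 to -0.44 in series 2, whatever the region. Its dimmer kept probe correlated with the brighter one at -0.53 across the arrays, so the split depends on the probe read. GJA4 was lower in series 1 (-1.21 to -0.35 against -0.33 to 0.43), as was TRPC4AP (-0.19 to 0.87 against 1.08 to 1.91). Both arms and all 3 regions are present in each series.

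Between border zone and normal region, 0 of the 52 genes passed, where 0.63% of all named genes did. An unadjusted p under 0.05 in limma was reached by 7 of the 52 genes and by 4910 of the 34362 probes kept. The 5 with the smallest p, none of which passed, were KCNMB4 (1.00 ± 0.35), KCNS3 (0.61 ± 0.22), TRPC1 (0.50 ± 0.19), CLCN4 (-0.84 ± 0.34) and KCNJ5 (-0.45 ± 0.19), with limma adjusted p from 0.197 to 0.28. GJA1 differed by -0.39 ± 0.26 and KCNIP2 by -0.02 ± 0.46, and the 95% interval for KCNIP2 runs from -0.99 to 0.94.

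Secretome and medium were then compared within each region. In the infarct core 0 of the 52 genes passed, where 0.0331% of all named genes did. An unadjusted p under 0.05 in limma was reached by 8 of the 52 genes and by 1685 of the 34362 probes kept. In the border zone 0 passed, with 0% of all genes, and 2 genes and 2475 probes had that unadjusted p. In the normal region 0 passed, with 0% of all genes, and 3 genes and 596 probes had it. Intervals were wide: GJA1 in the core was 0.60 higher with secretome, with a 95% interval from -0.39 to 1.58.

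KCNS3 had the smallest p in the border zone. Its medium arrays stood at -1.0, -0.13 and -1.36 in pigs 10, 18 and 40, and its 6 secretome arrays between -3.39 and -1.69, without overlap. The difference was -1.56 ± 0.40 (limma adjusted p = 0.662), with -1.66 and -1.37 within the scan series. KCNA3 followed, with medium arrays at -3.65, -2.69 and -2.26 and secretome arrays from -4.90 to -3.60, which overlap, and a difference of -1.41 ± 0.42 (limma adjusted p = 0.662). In the core KCNA3 differed by -1.0 ± 0.42. The 8 T and NK cell markers had a median difference of -1.61 between arms in the border zone and -1.22 in the core, none of them past the threshold, and their part in the KCNA3 values was not tested. CACNB4, CLCN3 and KCNRG completed the 5 with the smallest p in the border zone, at -0.66 ± 0.32, 0.71 ± 0.38 and -1.13 ± 0.61.

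In the core, KCNV1 had the smallest p. Its medium arrays were at -3.71, -1.91 and -2.67 and all above background, and its 6 secretome arrays spanned -8.22 to -4.50 with 1 above background, so the groups do not overlap. The difference of -4.36 ± 1.17 did not pass (limma adjusted p = 0.711). TRPV4 (-0.64 ± 0.24), KCND2 and KCNA3 came next. KCND2 was above background on all 3 medium core arrays and on none of the 6 secretome ones. Its mean was at least 1.52-fold higher on these medium arrays, and the difference did not pass (measured -1.63 ± 0.66, limma adjusted p = 0.974). KCNIP2 was higher with secretome by 1.92 ± 0.84, and by 0.32 without pig 40, so that 1 medium pig carried most of this value.

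In the normal region, with 2 medium and 4 secretome arrays, KCNMA1, KCND2, CACNB4 (-0.78 ± 0.37) and CACNG1 (0.71 ± 0.42) were among the genes with the smallest p, and limma gave each an adjusted p of 1. No secretome array there was above background for KCNMA1 or KCND2, and neither difference passed (measured -2.11 and -1.88). On these 2 medium arrays the mean was at least 2.14-fold higher for KCNMA1 and at least 2.46-fold higher for KCND2. For KCNMA1 only the medium array of pig 10 was above background (-3.41), that of pig 18 was not (-5.81), and the measured difference was -1.0 without pig 10. Whether the step from border zone to core differed between the arms was tested as an interaction. Of the 52 genes 0 passed, with 0% of all named genes. An unadjusted p under 0.05 in limma was reached by 1877 of the 34362 probes kept and by 3 of the 52 genes. KCND2 (-1.84 ± 0.63), KCNV1 (-3.04 ± 1.11) and GJA5 (-0.95 ± 0.39) were those 3, each with limma adjusted p = 0.841, and KCNQ5 and KCNRG had the next smallest p.

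**Figure D5:**
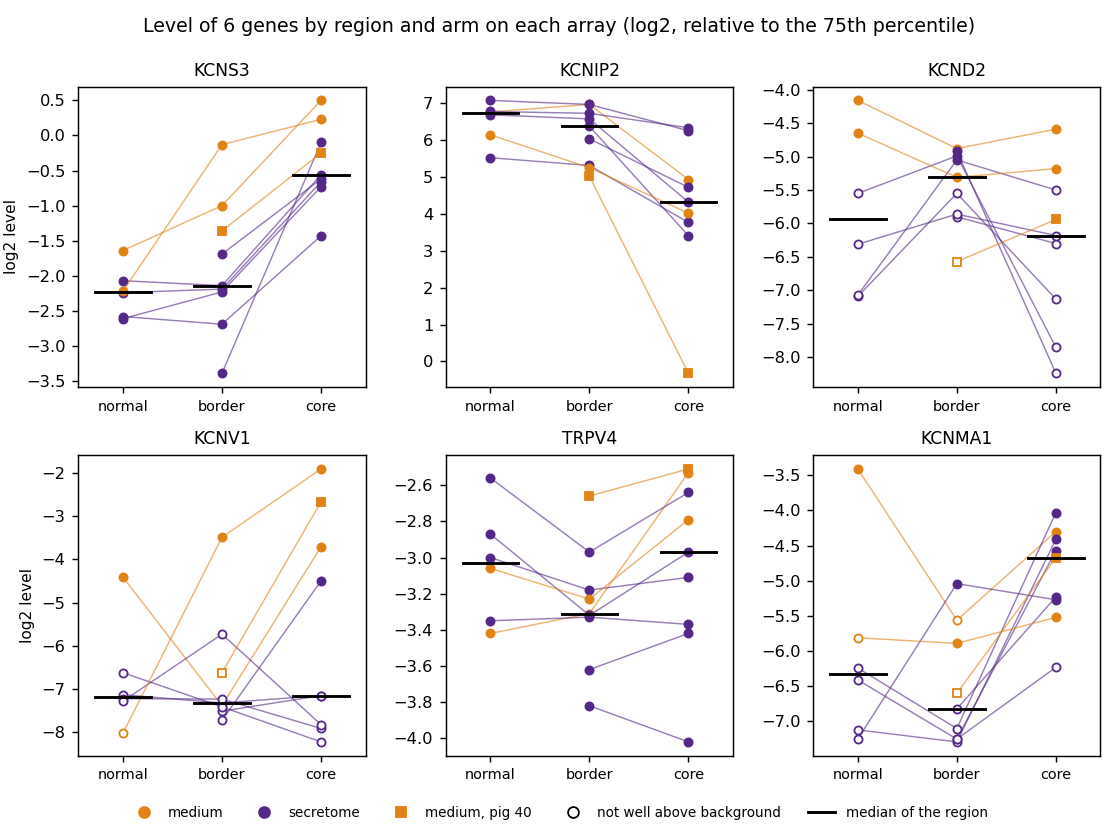
Log2 level of KCNS3, KCNIP2, KCND2, KCNV1, TRPV4 and KCNMA1 on each array by region, coloured by arm, with lines joining the arrays of a pig, squares for pig 40, open symbols for signals not well above background and black bars for region medians. In the border zone the 3 medium arrays of KCNS3 lie above the 6 secretome arrays, and for KCNIP2 the core array of pig 40 lies far below all others.

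Genes that work beside these channels were counted in the core against the normal region, where 27.6% of all named genes were higher and 30.7% lower. Of 19 measured genes among pumps, exchangers and the calcium store, 4 were higher and 11 lower than in the normal region, with ASPH, an enzyme whose gene also encodes a calcium store protein, at 1.92 ± 0.24, ATP2B1, a calcium pump of the cell membrane, at 1.02 ± 0.13 and ATP1B1, a sodium pump subunit, at -1.33 ± 0.18. Channel partners and regulators were lower in 12 of 15 and higher in 1, and the 3 with the smallest p were CAMK2D, the kinase that phosphorylates cardiac channels (-2.11 ± 0.25), GPD1L, a regulator of the cardiac sodium channel (-1.98 ± 0.26), and PRKACA, the catalytic subunit of protein kinase A (-0.90 ± 0.14). Of 9 intercalated disc genes 4 were lower and 0 higher, and the 3 with the smallest p were DSP, the desmosome linker (-1.62 ± 0.29), NRAP, an anchor of thin filaments (-2.21 ± 0.53), and XIRP1, an actin-binding disc protein (-1.85 ± 0.59). The medians of these 3 lists were -0.59, -1.39 and -0.42, beside -0.07 for all named genes. Among 23 other channels 5 were higher and 9 lower, and the mitochondrial pores VDAC1, VDAC2 and VDAC3 fell by 1.69, 1.90 and 2.18 on the log2 scale.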

How the data were processed

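One RNA sample per region and pig was hybridised to a 1-colour Agilent porcine array. The scanner files as deposited by the authors hold intensity values per spot. Per the file headers, Agilent's Feature Extraction software (10.7.3.1) had subtracted background and removed spatial trends. The authors' deposited series table holds log2 values (limma 3.14.4 is named in the submitters' processing notes); which method and offset gave its common level (column medians 7.684 to 7.692) is not given in the sources used here. All 24 columns were closest to the array they are labelled with (correlation 0.728 to 0.825 of gene-centred values). It served as an alternative.

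Outlier spots were left out (1 to 27 per array), spots of a probe averaged, and log2 processed signal taken relative to the 75th percentile of each array. Probes well above background on at least 3 arrays were kept (34362). Symbols were assigned through the accession for 8993 probes, the gene ID for 1299 and the files' gene name for 3544: 13836 probes had 1 symbol, 27 several and 29740 none. A gene is read from its brightest kept probe. No probe of these genes was saturated. A bound, written as at least N-fold, is given where a gene was below background on every array of a group. Such a bound compares group means and carries no sampling error. Readings of the other group enter it as measured, also those below background.

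In R 4.3.3, limma 3.58.1 with statmod 1.5.0 fitted 1 mean for each region and arm, and pig entered as a random block (0.548). Region comparisons weight both arms equally. p-values were adjusted over all kept probes and the fit was tested on simulated data. The pairing comes from regions of the same animal. In their deviations from group means, 21 same-pig pairs of arrays correlated at a mean of 0.583 (0.12 to 0.778). Other pigs of the same scan series gave a mean of 0.439 (-0.009 to 0.705), and other pigs across series a mean of -0.454. With a term for scan series, the correlation of the pig block was 0.204 in place of 0.548. Figures were drawn with matplotlib 3.10.9 under Python 3.11.15.

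Results for some genes are not reported here. The genes, lists and alternatives were chosen with earlier results of these data known. Named genes are, in the 2 comparisons of the core with other regions, up to 12 lowest and 12 highest past the threshold, elsewhere those past it or 5 with the smallest p, plus fixed genes of known cardiac role and up to 3 per pathway list. The alternatives were other scalings, filters, blocks, probes per gene, array weights, each scan series alone, the authors' values, and each pig left out.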

Additional observations from a re-analysis of the deposited data

Results flagged for a closer look

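In 120 groups of 4 to 6 arrays, 5 held an array far from the others, and chance sets an array apart in about 1 of 20 groups. KCNAB1 was highest in the infarct core of pig 12 at 0.52, with the next secretome core at -0.39. KCNH2 in the normal region of pig 14 was at 4.89, with the other 3 secretome arrays at 4.66 to 4.68. KCNMA1 in the border zone of pig 16 was at -5.04, with the next at -6.82. KCNV1 stood apart in the border zone of pig 15 at -5.73 (next -7.23), where none of the 6 secretome arrays was above background, and in the core of pig 13 at -4.50 (next -7.15), the 1 of 6 above background.

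In some genes every medium pig moved one way between regions and every secretome pig the other. For KCND2 the step from border zone to core was 0.35 on average in 3 medium pigs and -1.49 in 6 secretome pigs, and the interaction in limma was -1.84 ± 0.63 (adjusted p = 0.841). The step from normal region to border zone was -0.69 in 2 medium and 1.14 in 4 secretome pigs for KCND2, and 0.37 and -0.20 for KCNJ15, which was below background there. From normal region to core it was 3.40 and -0.71 for KCNV1 and 0.58 and -0.08 for TRPV4. The normal and core arrays of the 4 secretome pigs were all below background for KCNV1, so the sign of its -0.71 sets no direction. For KCND2 no core or normal array of a secretome pig was above background, nor were the border arrays of pigs 11, 12 and 16. Its -1.49 and 1.14 thus run to or from readings below background, and their sizes are not measured. Apart from the KCND2 interaction, these differences between arms were not tested.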

How the results depend on the processing

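Signal over background and the number of pigs limit these results. Leaving out each pig in turn gave 15 to 21 genes lower and 11 to 14 higher in the core than in the normal region, and 17 to 20 lower and 11 to 16 higher than in the border zone. Of the alternatives, these moved a count by more than 1.5 times. Requiring signal above background on all arrays left 30 genes, with 7 higher than in the normal region and 9 higher than in the border zone, since fewer genes were tested. Against the border zone, no replicate block gave 12 lower genes, the authors' values gave 12 lower among 35 genes, scan series 2 alone gave 2 lower and 8 higher, and asking for more than 2-fold gave 8 higher. With pig as a fixed replicate block 20 were lower and 11 higher than in the normal region, and 20 and 13 against the border zone. Array weights called 3 genes that differed from normal region to border zone, and between arms 1 in the core (KCNV1, -5.15, adjusted p = 0.0165). Reading the dimmest probe called KCNG1 between border zone and normal region, the 1 gene of that comparison. The direction reversed for KCNMB1 between core and normal region within scan series 1 (-0.48), and for KCNN4 between core and border zone with the mean of its probes (1.50) and with its dimmest probe (3.23), which follows from its disagreeing probes. Other causes were not tested. Across scalings the median of all probes shifted by under 0.1.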
